A study of Mus musculus with 41 samples.

Results

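The genes described here are 10 markers and regulators of epithelial-mesenchymal transition (EMT): the intermediate filament gene Vim, the matrix gene Fn1, the N-cadherin gene Cdh2, the repressor genes Zeb1, Zeb2, Twist1, Snai1, and Snai2, and the epithelial genes Cdh1 (E-cadherin) and Epcam. They were chosen by name, and all 10 are among the 27197 genes of the RNA count table, read in 6 mouse mesothelioma cell lines and 9 mouse mesotheliomas. The BNC lines (JB81, JB91, and JB97) carry the genotype Bap1-/-;Nf2-/-;Cdkn2ab-/-, and the NC lines (JB84, JB87, and JB93) carry Nf2-/-;Cdkn2ab-/-, so that loss of Nf2 and Cdkn2ab is shared by every library. The tumors arose in mice of mixed FVB, Bl6, and 129Ola background after Cre, driven by the ubiquitous CMV promoter of an adenovirus, was injected into the pleural space of young mice treated with cyclosporine A, and the lines were grown out from pieces of primary tumors. The labels give 5 tumors as BNC and 4 as NC, but no label ties a genotype to a tumor column, so the tumors were read as 1 group and no genotype was compared among them.

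In EMT, epithelial cells give up the junctions that E-cadherin and EpCAM help to hold and take on mesenchymal features such as vimentin filaments, N-cadherin, and a fibronectin matrix. The Snail, Slug (Snai2), Zeb, and Twist proteins are transcription factors that repress epithelial genes, and Snail and Zeb proteins bind short E-box sequences in their promoters. Mesothelial cells are a lining epithelium of mesodermal origin that keeps vimentin and N-cadherin in the healthy state, and malignant mesothelioma is classed by histology as epithelioid, sarcomatoid, or biphasic.

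The upstream promoter was searched for the E-box CAGGTG and its reverse complement CACCTG, which do not overlap each other. Of the 10 genes, 5 (Vim, Zeb2, Twist1, Snai1, and Epcam) matched the RefSeq promoter table of build GRCm38.p6, and Fn1, Cdh2, Zeb1, Snai2, and Cdh1 did not. Of the 8 promoters of these 5 genes, 2 held an E-box within 250 bases before the start site, and 17.2% of the 32851 promoters of that length held at least 1. The Epcam promoter held 2 E-boxes, starting 187 and 19 bases before the start site, and 2.06% of all promoters held 2 or more. The Snai1 promoter held 1, starting 126 bases before the start site. Both sequences are shown because they belong to an epithelial gene at the detection limit in every line and to one of the repressors that bind this motif. They lie on the plus strand at chr17:87635729-87635978 and chr2:167537945-167538194 and end at the base before the annotated gene. Capitals mark the E-boxes, and a match is a description of the letters only.
Epcam: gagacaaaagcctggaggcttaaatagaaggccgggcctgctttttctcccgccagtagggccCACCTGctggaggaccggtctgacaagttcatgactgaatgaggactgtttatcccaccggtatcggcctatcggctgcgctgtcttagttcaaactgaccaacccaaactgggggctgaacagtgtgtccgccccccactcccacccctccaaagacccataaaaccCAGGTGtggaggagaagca
Snai1: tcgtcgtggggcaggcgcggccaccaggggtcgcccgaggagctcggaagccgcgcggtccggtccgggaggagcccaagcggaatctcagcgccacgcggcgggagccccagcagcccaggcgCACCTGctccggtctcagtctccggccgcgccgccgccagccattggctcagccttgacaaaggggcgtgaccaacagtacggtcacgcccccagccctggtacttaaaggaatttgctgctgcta

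Libraries held between 8158740 and 23936922 counted reads, the fewest in tumor B1. JB81 and JB91 were nearly alike, with 5 of 10511 genes over 2-fold apart, and so were JB84 and JB93, with 8 of 10545, whereas the other pairs of lines had 1344 to 3774 such genes. Both near pairs still differed by more than sampling noise and were kept as separate libraries, so p-values over the lines measure a spread that may be partly technical. Bap1 counts were 41.4, 42.7, and 37.5 CPM (counts scaled by library size) in the BNC lines and 57.0, 56.2, and 61.0 in the NC lines. The conditional allele removes only some of its exons, so reads outside them are still counted. Nf2 was 84.5 to 121 CPM, Cdkn2a was at most 0.558 CPM, and Cdkn2b had at most 1 read in any line. Of the mesothelial marker genes, Wt1 was between 72.9 and 127 CPM in all 6 lines, whereas Msln (mesothelin) was 0.212 and 0.428 CPM in JB81 and JB91, 227 in JB97, and 835 to 2041 in the NC lines.

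The median level of each mesenchymal gene over the 6 lines was above those of Cdh1 and Epcam. On a scale per gene length (RPKM, the CPM divided by the kilobases of exon), the median level over the 6 lines was highest for Vim (904) and then for Fn1 (404) and Cdh2 (82.9). Among the repressor genes it was 23.9 for Snai1, 16.3 for Twist1, 15.9 for Snai2, 5.12 for Zeb2, and 4.77 for Zeb1. Cdh1 followed at 0.181 RPKM and Epcam at 0.0104. In JB97 alone of the lines Cdh1 was above 1 RPKM, at 2.43 beside 4.71 for Zeb1. Snai1, Twist1, and Snai2 overlapped in their ranges over the lines, as did Zeb1 and Zeb2. In the 9 tumors the medians were 397 for Vim, 264 for Fn1, 20.0 for Twist1, 10.6 for Snai1, 5.63 for Cdh2, 5.59 for Zeb2, 4.75 for Zeb1, 3.04 for Snai2, 2.63 for Cdh1, and 0.264 for Epcam RPKM. Vim and Fn1 alone exceeded Cdh2 in the lines, and in the tumors Twist1 and Snai1 did as well. The 4 neighbours from Cdh2 to Snai2 in this order overlapped in their ranges over the tumors.

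**Figure D1:**
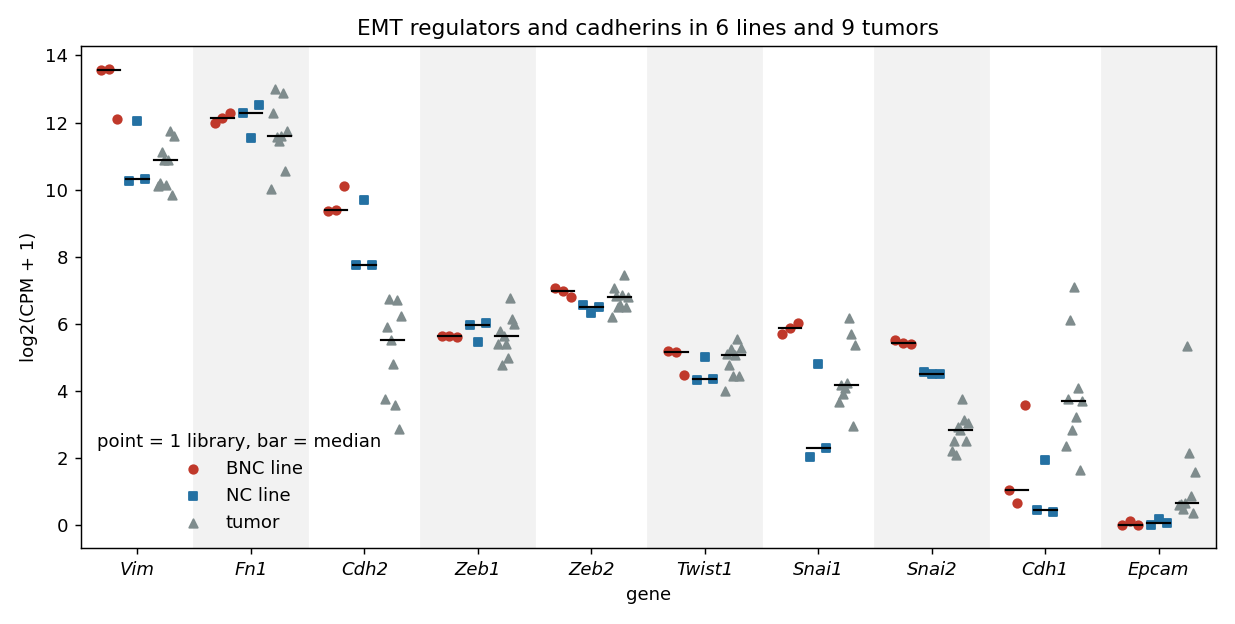
Level of each gene as log2(CPM + 1) in the 3 BNC lines, 3 NC lines, and 9 tumors, with 1 point per library and a bar at the group median. Snai2 forms 3 separate bands, Cdh2 is lower in every tumor than in every line, and Epcam is highest in tumor B2 and near 0 in the lines.

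The first comparison asks whether lines without Bap1 differ from lines that keep it. In edgeR's quasi-likelihood test over 12376 genes, none of the 9 genes tested passed the threshold of the study (adjusted p under 0.01 and more than 2-fold), where 1.10% of all genes passed. The study used this threshold with DESeq2, a less strict test on these counts. DESeq2 called 1974 of all genes at it, where edgeR called 136, and its counts for the genes described here are given in the last section. At an unadjusted p under 0.05 there were 4 (Vim, Zeb2, Snai1, and Snai2), all higher in BNC, where 35.6% of all genes were under 0.05 in either direction. At an adjusted p under 0.05, Snai2 alone passed, where 5.78% of all genes were called higher and 8.45% lower. Those same 4 genes had groups that did not overlap, as did 42.3% of all genes. Epcam was not tested, since no line had more than 2 reads.

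Among the repressor genes, Snai2 was 44.8, 42.1, and 41.6 CPM in JB81, JB91, and JB97, and 22.6, 21.8, and 21.8 CPM in JB84, JB87, and JB93. The BNC lines were all above the NC lines, and the spread within each genotype was small, at an SD of 1.73 (n = 3) and 0.464 CPM (n = 3). Snai2 encodes Slug, a zinc finger repressor of E-cadherin, and lies at chr16:14705852-14709385 (GRCm38). It was 1.87-fold higher in BNC (log2 fold change 0.90 ± 0.13 SE, adjusted p = 0.0151 by edgeR). The call was lost with the column-head prefix as a covariate (adjusted p = 0.0537) and with the near pairs of lines summed (adjusted p = 0.359), and the fold change stayed between 0.87 and 0.94 on the log2 scale without any 1 line. Without JB81, JB91, JB84, or JB93 the call was also lost, with adjusted p up to 0.101.

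Snai1, which encodes Snail, was 50.6, 58.0, and 63.8 CPM in JB81, JB91, and JB97. In JB84, JB87, and JB93 it was 3.08, 26.9, and 3.98 CPM. JB87 stood between the BNC lines and the near pair of NC lines. Snai1 had a log2 fold change of 2.29 ± 0.86 (SE) with adjusted p = 0.119, and without JB87 it was 3.99 with adjusted p = 0.000517. Without JB87 the NC lines left are JB84 and JB93, so the spread of the NC group in that fit is that of the near pair. Over all genes 6800 were then called at an adjusted p under 0.05, against 1761 with JB87. The same limit holds for Zeb2, Zeb1, Vim, and Cdh2 without JB87 below. Without JB97 the BNC lines left are likewise a near pair, JB81 and JB91.

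Zeb2 was 134, 125, and 111 CPM in the BNC lines and 93.3, 78.5, and 89.2 CPM in the NC lines. The groups did not overlap, at a log2 fold change of 0.45 ± 0.15 (SE, adjusted p = 0.0861), and Zeb2 passed 0.05 without JB97 (adjusted p = 0.0452) and without JB87 (adjusted p = 0.0420). Zeb1, its paralog, was 49.0, 49.0, and 48.3 CPM against 62.0, 42.7, and 64.5 CPM, with JB87 below and the other NC lines above all BNC lines (log2 fold change -0.26, 95% interval -0.72 to 0.19, adjusted p = 0.339). Without JB87 its adjusted p was 0.0109, lower in BNC. Twist1, a basic helix-loop-helix factor, was 36.0, 34.6, and 21.4 CPM against 19.2, 31.7, and 19.5 CPM. Its groups overlapped, with JB97 near the NC pair and JB87 near the BNC pair (log2 fold change 0.33, 95% interval -0.42 to 1.09, adjusted p = 0.458).

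Vim was 12240, 12440, and 4369 CPM in JB81, JB91, and JB97. It was 1220, 4207, and 1274 CPM in JB84, JB87, and JB93. JB97 and JB87 were close to each other, on either side of the gap between genotypes. For Vim the log2 fold change was 2.06 ± 0.67 (SE) with adjusted p = 0.0885, and without JB87 it was 2.93 with adjusted p = 0.0121. Within the 2 prefixes that the line columns carry, the difference in mean log2(CPM + 1) was 2.43 and 2.53 for Vim, 2.27 and 3.63 for Snai1, and 0.98 and 0.91 for Snai2, from 3 lines each.

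Fn1 was 4087, 4461, and 4999 CPM in the BNC lines and 4991, 2975, and 5838 CPM in the NC lines, with no difference beyond the spread (log2 fold change -0.08, 95% interval -0.76 to 0.60, adjusted p = 0.854). Cdh2 was 663, 674, and 1113 CPM in JB81, JB91, and JB97. In JB84, JB87, and JB93 it was 215, 833, and 217 CPM, so that the near pair of NC lines stood lowest and JB87 lay among the BNC lines. Cdh2 had a log2 fold change of 0.89 ± 0.60 (SE, adjusted p = 0.323), and without JB87 it was 1.89 with adjusted p = 0.00607.

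Cdh1 lies at chr8:106603351-106670246 (GRCm38). It was 1.06, 0.599, and 11.1 CPM in JB81, JB91, and JB97 (25, 14, and 219 reads). It was 0.377, 2.82, and 0.320 CPM in JB84, JB87, and JB93 (6, 37, and 7 reads). One line of each genotype, JB97 and JB87, held more E-cadherin RNA than the other 4, and the groups overlapped. The log2 fold change of 1.80 ± 1.39 (SE, adjusted p = 0.380) turned to -0.50 without JB97. JB97 and JB87 were also the lines highest for Cdh2, so the level of N-cadherin was not lowest where E-cadherin was highest.

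**Figure D2:**
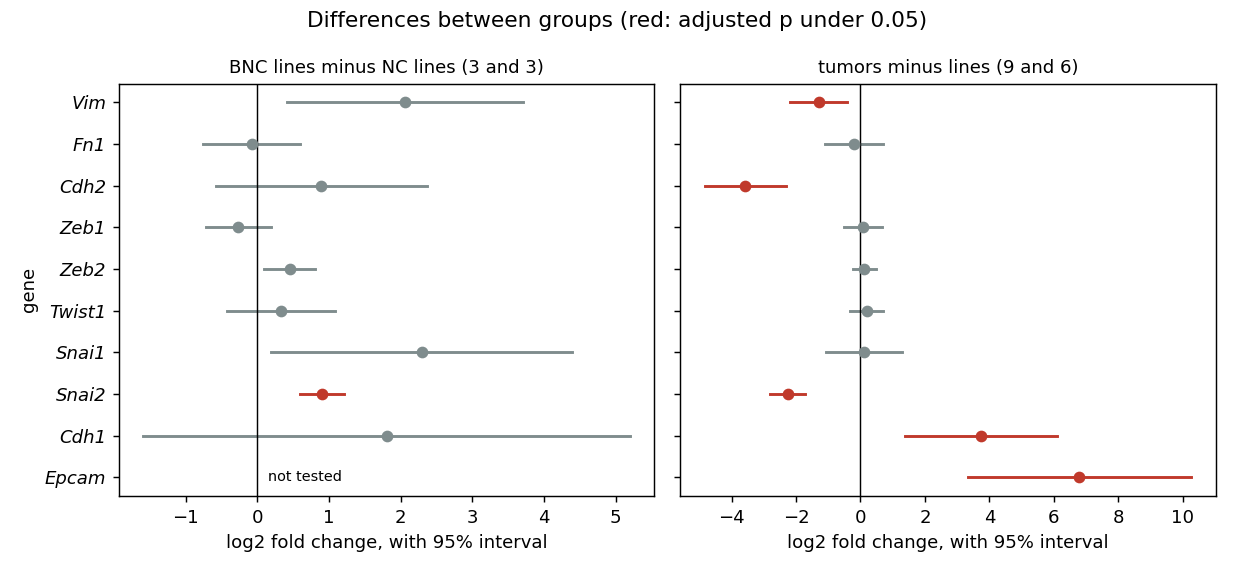
Log2 fold change with its 95% interval for BNC minus NC lines (left) and tumors minus lines (right), from edgeR, with genes at an adjusted p under 0.05 in red. On the left Snai2 alone is red, and on the right Vim, Cdh2, and Snai2 are lower and Cdh1 and Epcam higher in tumors.

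Of 38 other genes of epithelial junctions and identity, 16 were tested between the lines, and at an adjusted p under 0.05 edgeR called 5 lower in BNC and 0 higher. DESeq2 called 8 lower and 0 higher. By edgeR the lower calls in this list went to 0 without JB81, JB91, JB84, or JB93, to 1 with the column-head prefix as a covariate, and to 0 with the near pairs summed. Over all genes the calls went from 1761 to 16, 15, 49, and 54 without these lines in turn, to 272 with the prefix, and to 0 with the pairs summed, and without JB87 they were 6800. The groups did not overlap for 11 of the 16, all lower in BNC, as for 18.6% of all genes, and the median log2 fold change was -2.12, where the median of all genes was -0.0023. Krt18, Grhl1, and Spint1, at most 0.964, 0.257, and 0.305 CPM in the BNC lines, passed the filter through the NC lines. So did Krt8, at 0.297 CPM in JB81, 0.0428 in JB91, and 7.31 in JB97. These genes could therefore hardly be other than lower in BNC. With a near pair in each genotype, groups that do not overlap rest on fewer distinct lines than 6. Tjp1, which encodes the tight junction scaffold ZO-1, was 128, 127, and 156 CPM against 361, 357, and 367 CPM (log2 fold change -1.46, adjusted p = 0.00716). F11r, a junctional adhesion molecule, was 11.4, 12.7, and 48.9 CPM against 202, 96.3, and 215 CPM (log2 fold change -2.88, adjusted p = 0.0436). Krt8 and Krt18, the keratin pair of simple epithelia, were at most 7.31 and 0.964 CPM in the BNC lines and at least 197 and 55.9 CPM in the NC lines (adjusted p = 0.0457 and 0.0187), and Grhl1 was also called lower. Of 14 mesothelial markers, 3 keratins are in the epithelial list as well, 12 were tested, and the 2 called lower were these same Krt8 and Krt18. Of the 9 tested markers outside the epithelial list, 1 had an unadjusted p under 0.05. Without the 3 keratins the summed level was 133 to 1105 CPM in the BNC lines and 1978 to 2910 in the NC lines. Whether the mesothelial list has a part in the difference of the epithelial genes was not tested. Of the markers of other cell types, few could be tested in the lines: 1 leukocyte (Lyz2) of 3 and 1 fibroblast (Clec3b) of 3 were called higher in BNC, 2 muscle genes (Tnnt2 and Des) of 4 were lower, none of 2 endothelial genes and not the 1 lung epithelium gene passed, and no adipocyte gene was tested. Lyz2 and Clec3b, at most 0.229 and 0.153 CPM in the NC lines, passed the filter through the BNC lines. Des, at most 0.299 CPM in the BNC lines, passed it through the NC lines.

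Of 34 other mesenchymal genes, 31 were tested, and the median log2 fold change was 0.86. Of all genes, 5.78% were called higher in BNC and 8.45% lower at an adjusted p under 0.05. In this list 4 were called higher in BNC and 2 were called lower. These went to 0 higher and 1 lower without JB81, JB91, JB84, or JB93 and with the prefix, and to 0 with the pairs summed, whereas 21 were higher and 3 lower without JB87. Pdgfrb, a receptor of platelet-derived growth factor, was 167, 172, and 171 CPM against 2.14, 21.9, and 2.47 CPM (log2 fold change 4.22, adjusted p = 0.0447). Lox, a collagen cross-linking enzyme, was 2761, 2676, and 2872 CPM against 1557, 1385, and 1466 CPM (adjusted p = 0.0226), and Itgb1 and the E-box factor Tcf3 were the others called higher. Spp1 (osteopontin) was 16.8, 15.9, and 14.4 CPM against 190, 134, and 184 CPM (log2 fold change -3.48, adjusted p = 0.00347), and Tcf4 was the other called lower. The catenins and cadherin partners had 1 gene called of 9 tested, Ctnnd1 (p120 catenin), higher in BNC at log2 0.74 (adjusted p = 0.0350). Of 11 TGF-beta inducer genes, Tgfbr1 was called, lower by a log2 fold change of -0.97 (adjusted p = 0.0330). Of 9 corepressor genes that Snail and Zeb proteins use, Ezh2 was called, at 147, 140, and 159 CPM in BNC against 61.8, 94.1, and 59.2 CPM (adjusted p = 0.0374). The calls of Ctnnd1, Tgfbr1, and Ezh2 stand beside the shares of all genes given above. They were lost without JB81, JB91, JB84, or JB93 and with the pairs summed.

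The second comparison sets the 9 tumors against the 6 lines, the mean of the tumors against the mean of both genotypes of lines. Of the 15675 genes tested, 28.2% were called higher in tumors and 11.5% lower at an adjusted p under 0.01 and more than 2-fold, and the median log2 fold change of all genes was 0.38. Among the lines alone 12376 genes passed the filter, so genes tested here only through their tumor levels could hardly be called lower. Of the 10 genes described here, Cdh1 and Epcam were called higher and Cdh2 and Snai2 lower. All tumor columns share 1 prefix that no line column has, so tissue and prefix cannot be told apart. Of the leukocyte markers, 14 of 14 were called higher in tumors, with summed levels of 1584 to 9145 CPM against 4.53 to 46.4 in the lines, and Ptprc was at 0 or at most 0.0764 CPM in every line. Of the endothelial markers 7 of 8 and of the fibroblast markers 7 of 7 were called higher, with fibroblast sums of 889 to 6683 CPM against 23.7 to 94.5. Muscle markers were called higher for 7 of 8 tested, lung epithelium for 2 of 4, adipocyte for 2 of 3, and mesothelial for 3 of 12, with none called lower. The part of these cells in the differences below was not tested, and in bulk samples fewer cells of a type and less RNA per cell cannot be told apart.

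Cdh2 was lower in every tumor than in every line. The tumors ranged from 6.32 CPM (B45) over a median of 45.4 to 106 CPM (B14), and the lines from 215 to 1113 CPM. At a log2 fold change of -3.57 ± 0.59 (SE, adjusted p = 0.000163), it was called without any 1 of the 15 libraries. Snai2 was also lower in every tumor, at 3.32 CPM in B14 over a median of 6.13 to 12.6 CPM in B27 against at least 21.8 CPM in the lines (log2 fold change -2.26 ± 0.26 SE, adjusted p = 7.14e-06).

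Vim was 920 to 3446 CPM in the tumors with a median of 1881, and 1220 to 12440 in the lines. Tumors and lines overlapped, since JB84 and JB93 were below 5 of the 9 tumors. Vim had a log2 fold change of -1.30 (adjusted p = 0.0134, past 0.05 but not 0.01), and without JB87 it was -0.88 with adjusted p = 0.0659. The other mesenchymal genes showed no difference beyond the spread. Log2 fold changes were -0.20 for Fn1 (95% interval -1.09 to 0.69), 0.08 for Zeb1 (-0.51 to 0.66), 0.12 for Zeb2 (-0.24 to 0.48), 0.19 for Twist1 (-0.32 to 0.70), and 0.12 for Snai1 (-1.06 to 1.29). Snai1 varied most among tumors of the 5 repressor genes, from 6.74 CPM in B45 to 71.9 CPM in B27, a range of 10.7 times, whereas Zeb2 varied 2.41 times, from 72.4 to 174 CPM. B28 held the highest Zeb1 (109 CPM), Zeb2 (174 CPM), Twist1 (46.2 CPM), and Vim of the tumors.

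Cdh1 was 2.12 CPM in B45, 12.04 at the median, and 137 CPM in B2, with B14 second at 69.0 CPM. The other 7 tumors, at 2.12 to 16.2 CPM, overlapped with JB97 and JB87. The log2 fold change over the lines was 3.74 ± 1.11 (SE, adjusted p = 0.00922). Without B2 it was 2.84 with adjusted p = 0.0175, past 0.05 only. It moved by more than 1.5 times without JB97 (4.89) and without JB87 (4.58) as well, and without any 1 library the adjusted p stayed between 0.00466 and 0.0279. It was above 0.01 without each of JB81, JB91, JB84, JB93, B2, B14, B13, B28, and the tumor with no B number in its column head.

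Epcam lies at chr17:87635979-87651129 (GRCm38). The 6 lines held 0 to 2 reads, at or under the floor of 3 reads. The tumors held 0.297 CPM (B45) to 39.8 CPM (B2, 785 reads) with a median of 0.580. B27 was next at 3.43 CPM, and the other 7 tumors were at 2.03 CPM or less, with 2 reads in B1. Every tumor was above every line in CPM (adjusted p = 0.00246, edgeR), although B1 was itself under the floor. Epcam passed the filter only through its tumor levels, so it could hardly be called other than higher in tumors. The adjusted p was 0.00100 without B2 and 0.0101 without JB93, and with the near pairs of lines summed it was 0.0145. Against the floor of 3 reads per line, averaged over the 6 lines, the tumor median was at least 3.61-fold higher, and the tumor mean, which B2 sets, at least 33.6-fold.

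Tumor B2 carried the RNA of lung epithelium. The surfactant gene Sftpc stood at 12875 CPM, the club cell gene Scgb1a1 at 29911 CPM, and the lung transcription factor gene Nkx2-1 at 59.7 CPM. All 8 lung epithelium markers were at 1 CPM or more in B2, and their sum of 48560 CPM compared with 3.09 to 99.0 CPM in the other 8 tumors and at most 1.28 CPM in the lines. The epithelial genes Cldn3 (58.2 CPM), Cldn7 (29.3 CPM), Esrp1 (16.6 CPM), and Grhl2 (7.10 CPM), named after their values were seen, were also higher in B2 than in the other tumors, in which they were at most 3.85, 0.556, 0.571, and 0.0927 CPM. B14 held 69.0 CPM of Cdh1 with a lung marker sum of 7.76 CPM and 0.404 CPM of Epcam. Its mesothelial marker sum of 6477 CPM was the highest of the tumors, with Msln at 1540 CPM and Upk3b at 1291 CPM. Without B2, Cdh1 in the tumors had a mean of 16.3 CPM and a median of 10.2, and Epcam a mean of 1.08 CPM and a median of 0.576.

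**Figure D3:**
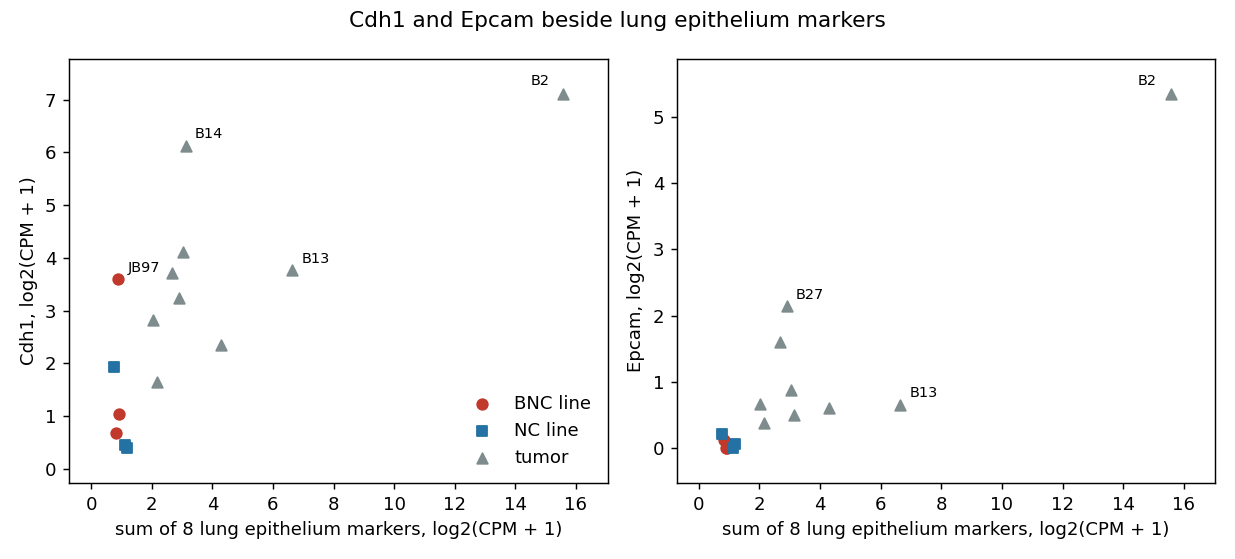
Cdh1 (left) and Epcam (right) as log2(CPM + 1) against the summed CPM of 8 lung epithelium markers on the same scale, 1 point per library. B2 is the highest for both genes and for the markers, and B14 has 69.0 CPM of Cdh1 at a marker sum of 7.76 CPM.

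Of 29 other epithelial genes tested, 11 were called higher and 1 (Tjp1) lower at an adjusted p under 0.01 and more than 2-fold, with a median log2 fold change of 2.42, where 28.2% of all genes were called higher. Of the 38 genes in the list, 16 passed the filter among the lines, so many of the 29 were tested only through their tumor levels. For those the filter itself favoured a higher value in tumors. Pkp3, named below, was among them, at 0.755 CPM or less in the lines. Without each library in turn 7 to 12 were called higher. Pkp3, a desmosomal plakophilin, was higher by 7.46 (adjusted p = 1.67e-06) and Krt18 by 5.10 on the log2 scale (adjusted p = 0.000455). For Krt18 tumors and lines overlapped, since the NC lines, at 55.9 to 144 CPM, lay within the tumor range of 24.1 to 512 CPM. The BNC lines were at most 0.964 CPM. Of 34 other mesenchymal genes, 12 were higher and 1 (Lox) was lower, with a median log2 fold change of 0.87. Of all genes, 28.2% were called higher and 11.5% lower. The mesenchymal genes called higher included Col3a1 (log2 fold change 4.33, adjusted p = 7.72e-05) and Cdh11 (3.58, adjusted p = 0.000345), which fibroblasts also use. Of the corepressors, 4 of 9 were called lower, where 11.5% of all genes were, among them Ezh2 by a log2 fold change of -1.98 (adjusted p = 2.98e-05). Of the catenins and partners, 3 of 9 were lower, among them Ctnna1 (alpha-catenin), which was 556 to 642 CPM in the lines and 130 to 389 CPM in the tumors.

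Set side by side per gene length, Cdh2 exceeded Cdh1 by 56.8 times in JB97, 167 in JB87, 323 in JB84, 384 in JB93, 355 in JB81, and 638 in JB91. In the tumors this ratio was 0.113 in B2, 0.748 in B27, and 0.872 in B14, and between 1.69 and 4.21 in the other 6. No tumor reached the ratio of any line. On this scale E-cadherin RNA exceeded N-cadherin RNA in 3 tumors. In CPM, without division by exon length, Cdh2 was above Cdh1 in B14 (106 against 69.0) and in B27 (11.1 against 8.44). For B14 and B27 the order of the cadherins thus depends on the exon lengths used. Only B2, the tumor with lung epithelium RNA, had more Cdh1 on both scales (137 against 27.2 CPM).

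**Figure D4:**
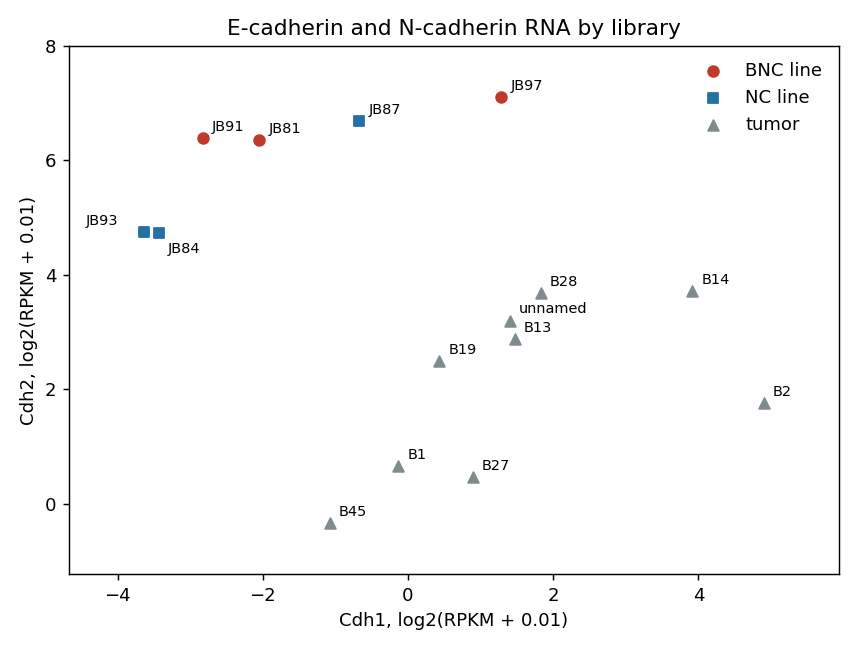
Cdh2 against Cdh1 as log2(RPKM + 0.01), a scale per gene length, with 1 point per library. The lines lie above the tumors, and no tumor reaches the Cdh2 level of any line. Along Cdh1 the groups overlap, with JB97 (2.43 RPKM) and JB87 (0.618) within the tumor range of 0.463 in B45 to 30.0 in B2.

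For an order from epithelial to mesenchymal, each gene was centred over the 15 libraries on log2(CPM + 1), and the mean of Cdh1 and Epcam was subtracted from the mean of the other 8. The order is a description without a test. All 9 tumors came before all 6 lines. The most epithelial was B2 at -5.02, followed by B14 (-1.68), B27 (-1.10), B1 (-0.83), the tumor whose column head carries no B number (-0.66, the unnamed tumor), B13 (-0.60), B45 (-0.30), B19 (-0.22), and B28 (-0.02). The lines followed with JB97 (1.03), JB87 (1.33), JB84 (1.46), JB93 (1.53), JB81 (2.46), and JB91 (2.60). BNC lines thus stood at both ends of the order of the lines. JB97 came first of the lines with Cdh1 at 11.1 CPM and 0 reads of Epcam. By the other epithelial genes, centred in the same way, JB97 was at -0.47. That was below JB84 (-0.14), JB87 (0.29), and JB93 (-0.13), so this list did not place JB97 as the most epithelial line. The near pairs JB81 and JB91 differed by 0.14 and JB84 and JB93 by 0.07. Steps of 0.14 or less therefore separated JB87 from JB84, the unnamed tumor from B13, and B45 from B19, and these neighbours did not differ by more than the near pairs.

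The 2 parts of the score did not run together. The mesenchymal part was highest in JB91 (1.13) and JB81 (1.11), and JB97 (0.96), B28 (0.60), and JB87 (0.53) came next, ahead of JB93 (-0.11) and JB84 (-0.18). It was lowest in B1 (-1.22) and B45 (-1.17). These 2 tumors had muscle marker sums of 39830 and 33975 CPM, and B19, at 39476 CPM, had a mesenchymal part of -0.35. The part of muscle RNA in the order was not tested. The epithelial part was 4.36 in B2 and 1.44 in B14 and was between -0.86 and 0.82 in the other tumors. B2 had a lung epithelium marker sum of 48560 CPM, and the part of that RNA in its place in the order was not tested. B28 combined an epithelial part of 0.62 with the highest mesenchymal part of any tumor. The other epithelial genes, centred in the same way, were highest in B2 (2.15) and B14 (0.79) and lowest in JB81 and JB91 (-1.44 and -1.45), and the other mesenchymal genes were highest in B27 (1.41) and lowest in JB84 (-1.86). By the other mesenchymal genes the lines, from -1.86 to 0.28, were not above the tumors, from -0.51 to 1.41. This list holds genes of fibroblasts, whose markers were higher in the tumors as given above, and their part was not tested.

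**Figure D5:**
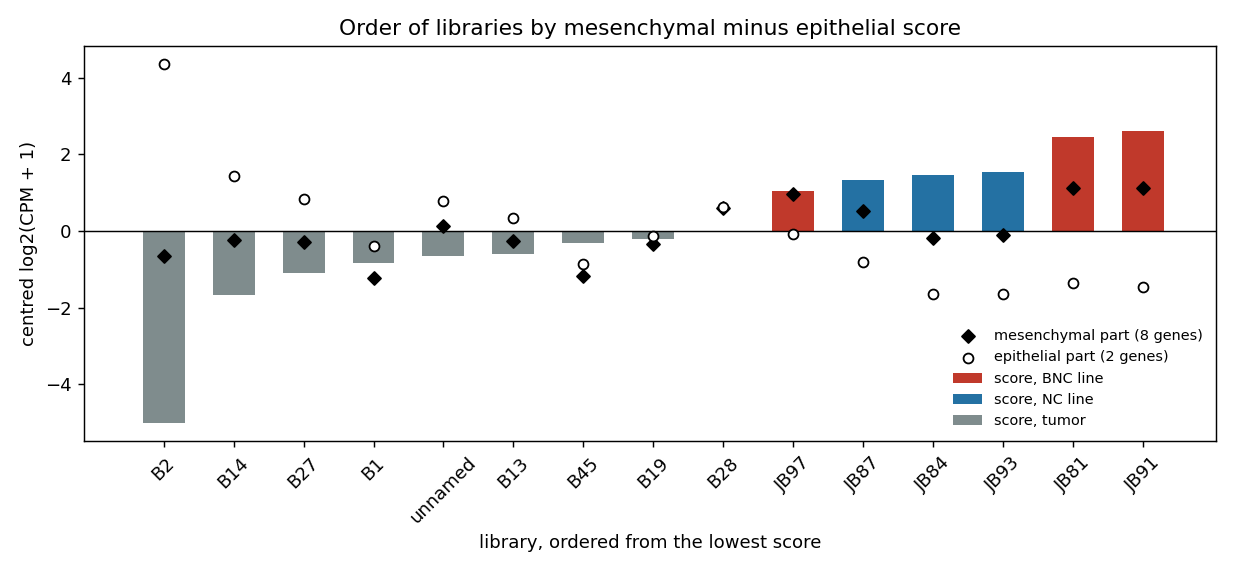
Score of each library (bars, coloured by group) in centred log2(CPM + 1), with its mesenchymal part (filled diamonds, 8 genes) and epithelial part (open circles, 2 genes), ordered from the lowest score. B2 is lowest at -5.02, and all 6 lines are above all 9 tumors.

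Across the 9 tumors, Cdh1 was compared with each of the 9 other genes on log2(CPM + 1), with two-sided exact permutation tests over all pairings and adjustment over the 9 relations. None passed at an adjusted p under 0.05. Epcam had Pearson's r of 0.65 (p = 0.0581, adjusted p = 0.470, exact permutation) and Spearman's rho of 0.45 (p = 0.230, adjusted p = 0.345, exact permutation), and r fell to 0.43 without B2 and B14, the 2 tumors farthest from the median of Cdh1. Cdh2 had r of 0.52 (p = 0.157, adjusted p = 0.470, exact permutation) and rho of 0.67 (p = 0.0589, adjusted p = 0.342, exact permutation), and r was 0.86 in the other 7 tumors. Fn1 had r of 0.56 (p = 0.112, adjusted p = 0.470, exact permutation) and rho of 0.63 (p = 0.0760, adjusted p = 0.342, exact permutation), and r was 0.89 in the other 7. Of the repressor genes, Zeb1 had the lowest r, at -0.34 (p = 0.368, adjusted p = 0.829, exact permutation) with rho of -0.28 (p = 0.463, adjusted p = 0.595, exact permutation), and r was 0.27 in the other 7 tumors. The r of Zeb2 was 0.24 (p = 0.524, adjusted p = 0.928, exact permutation) and was 0.82 in the other 7 tumors. For Snai1 it was 0.14 (p = 0.722, adjusted p = 0.928, exact permutation) and 0.77, for Twist1 0.03 (p = 0.947, adjusted p = 0.947, exact permutation) and 0.80, and for Snai2 -0.07 (p = 0.844, adjusted p = 0.947, exact permutation) and 0.47. Their rho was 0.57, 0.45, 0.17, and 0.07. With 9 tumors only strong relations can pass, and none of the 5 repressor genes did.

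Without B2 alone, an alternative chosen after seeing the data, Cdh1 rose with Fn1 (r = 0.86, adjusted p = 0.0344, exact permutation, n = 8) and with Cdh2 (r = 0.80, adjusted p = 0.0354, exact permutation, n = 8). B45, B1, and B19 hold the lowest Cdh1 of these 8 tumors and the 3 highest muscle marker sums, and the part of muscle RNA in these relations was not tested. All 9 tumors share 1 column-head prefix, so no smaller batch could be set apart.

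Among 15584 other genes with a symbol, those whose log2(CPM + 1) over the 9 tumors was most like Cdh1 were Foxf1 (r = 0.95), March1 (0.94), and Dner (0.94), and none of them was among the 3 most like it without B2. For Epcam they were Erich2 (0.99), Sec14l2 (0.99), and Cox4i2 (0.98), of which 2 stayed without B2. For Zeb1 they were Olfml2a (0.98), Srpk2 (0.97), and Kcna6 (0.96), with 1 that stayed. These are descriptions over 9 libraries that share a prefix and differ in their lung, muscle, and leukocyte RNA.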

How the data were processed

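RNA sequencing counts of 6 cell lines and 9 tumors were analysed. The deposited values are raw counts, integers for each Ensembl gene that the authors did not normalize. According to the methods of the study, poly-A RNA was sequenced from one end, and reads were mapped to mm10 with TopHat 2.0.12, filtered on mapping quality, and counted with HTSeq-count. The strand setting of the counting is not given in the sources used here, so overlapping and antisense genes are uncertain, and reads shared with paralogs can be lost.

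Lines were assigned to genotypes by the line names in the supplementary column heads. Tumor columns formed 1 group, and 14 further columns of DNA values were not used. Chromatin profiles were not used here. The 10 genes, the lists, and the tests were chosen with earlier results of these data known. All 10 genes are named. List genes with values are among those that passed a call, apart from cell type markers and genes named after their values were seen, and for Cdh1, Epcam, and Zeb1 the 3 genes most like them are given. The rule also covered Cdh2, whose result is not reported here.

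Genes were filtered with filterByExpr (minimum count 10), scaled by TMM, and tested with edgeR 4.0.16 (quasi-likelihood, Benjamini-Hochberg) in R 4.3.3, with the 6 lines for genotype and all 15 libraries for tumors against lines. Calls were made at an adjusted p under 0.01 with more than 2-fold change or under 0.05. CPM, the count divided by the library size and set to a fixed total, is TMM-scaled over the 15 libraries, and RPKM uses GENCODE exon lengths. The scripts were tested on simulated counts. Alternatives were DESeq2 1.42.0, library size without TMM, no filter, the near pairs summed, the prefix as a covariate, the replicate block, all 15 libraries in one fit, and leaving out each library. Counts of list genes under these were added after seeing the data. Counting error only is covered by the floor of 3 reads, set per library.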

Additional observations from a re-analysis of the deposited data

Results flagged for a closer look

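Each of the 10 genes was examined for a tumor that stands apart from the other 8, by the gap of the highest or lowest value to its neighbour as a share of the whole range (95% critical value 0.493). For normally distributed values chance flags about 1 in 20 such groups, and 3 were found, all for a highest value. The gap was taken on CPM without a log, a scale on which high values stand farther apart. That rate therefore need not hold here, and the flags are descriptions only. Epcam in B2 had a gap of 0.921 of the range (39.8 CPM, with 3.43 CPM in the next tumor). Cdh1 in B2 had a gap of 0.504 (137 CPM, with 69.0 CPM in B14). Snai2 in B27 had a gap of 0.512 (12.6 CPM, with 7.85 CPM in B28). B2 is the tumor with a lung epithelium marker sum of 48560 CPM, and B27 has the highest endothelial marker sum of the tumors, 953 CPM, and the highest Snai1. The part of either in these values was not tested.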

How the results depend on the processing

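Of the genes tested between BNC and NC lines, 0 passed at an adjusted p under 0.01 and more than 2-fold and 1 under 0.05. DESeq2 gave 1 and 4. The latter count was 0 with the near pairs summed, with the prefix as a covariate, and with all 15 libraries in one fit. It was also 0 with the replicate block, in which same-numbered lines, by the numbers of the supplementary heads, had correlations of their deviations of 0.13, -0.084, and 0.099, so the lines share only a number. Without each line in turn the counts were between 0 and 2 and between 0 and 6, and with DESeq2, chosen after seeing the data, 1 and 3 without JB97 and 3 and 7 without JB87. Over all genes edgeR called 136 and DESeq2 1974 at the first threshold, and 1761 and 3882 under 0.05. Without JB87 edgeR called 2574 and 6800 of all genes and DESeq2 3806 and 7598, and without JB97 DESeq2 called 2758 and 4951. Without JB91 edgeR called 15 under 0.05. The counts for the genes described here thus moved with those of all genes. Leaving out TMM moved the median log2 fold change of all genes to -0.14 and the share of calls higher in BNC at 0.05 from 40.6% to 31.8%.

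For tumors against lines, where 4 genes passed at the first threshold, 2 passed with the near pairs summed and with the 6 lines as 1 group, and 2 to 5 without each library in turn. Without TMM the median of all genes went from 0.38 to 0.27. The prefix could not be fitted, since it is confounded with tissue.

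Changes of sign were found in genes that were not called. Fn1 between the lines was 0.070 with the pairs summed, 0.19 with the block, -0.29 to 0.11 without each line, and 0.13 and 0.0047 in DESeq2 without JB93 and JB81. Cdh1 between the lines was -0.50 to 3.55 without each line and -0.50 in DESeq2 without JB97. For tumors against lines Snai1 was -0.15 with the pairs summed, -0.29 with the lines as 1 group, and -0.20 to 0.97 without each library, and Zeb1 was -0.11 to 0.17. The r of Cdh1 with Zeb1 was 0.059 without TMM and 0.27 without B2 and B14, and with Snai2 0.23 and 0.47. Without B2 alone, 2 relations of Cdh1 passed.

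The order of libraries had Spearman's rho of at least 0.94 with the main order under every alternative except without Cdh1 (0.871). In all 14, B2, the tumor with lung epithelium RNA, was the most epithelial. The cause of these changes was not tested. Depth limits Cdh1 and Epcam in the lines, at 37 reads or fewer outside JB97.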
